A study of Mus musculus with 6 samples.

Results

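The genes described here are 10 genes that the ERK pathway switches on and whose products, for the most part, hold that pathway back. They are the phosphatase genes Dusp4, Dusp5 and Dusp6, the Sprouty genes Spry1, Spry2 and Spry4, the Spred genes Spred1 and Spred2, and the ETS transcription factor genes Etv4 and Etv5. They were taken by symbol from a count table of 55809 gene symbols. All 10 were found, and all 10 passed the filter on low counts that left 13956 genes for testing.

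RNA was sequenced from 410.4 cells, a mouse mammary carcinoma line, kept for 2 days in DMEM with 0.5% fetal calf serum. In the control group (3 libraries, titled Veh) this was plain control medium, and in the NETs group (3 libraries) it was medium into which neutrophil extracellular traps had been isolated. Such traps are strands of chromatin, studded with enzymes of the granules, that neutrophils shed. By its title the series asked whether such traps switch on TGF-beta in metastatic cells of the breast. Both groups shared the low serum, the length of culture and the cell line. The labels describe no preparation free of traps from the same neutrophils, so traps cannot be told apart from anything else that differed between the media. The labels also do not say that replicates were separate cultures, and the p-values then measure only the spread between these libraries.

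In the ERK pathway a growth factor receptor activates the small GTPase RAS, which acts through the kinases RAF and MEK on the kinase ERK. Active ERK raises transcription of its own inhibitors within minutes to hours, and for that reason the messages of DUSP6, the Sproutys and the ETV factors are widely read as a sign of ERK output. In mammary epithelium the pathway drives branching and proliferation, and ETV4 and ETV5 belong to the PEA3 group of ETS factors known from mammary tumours. A message level is not a measure of ERK phosphorylation, which was not assayed in the data used here.

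With NETs 8 of the 10 genes were lower and 2 were higher in edgeR's quasi-likelihood test, adjusted by Benjamini-Hochberg over all tested genes. Across all tested genes 18.7% were called lower and 20.2% higher, 38.9% in all. Dusp6, Spry1 and Spry4 fell the most, to 46.3%, 49.1% and 51.5% of their control level. Dusp5, Spry2, Etv4 and Etv5 fell by smaller amounts, and Spred1, Spred2 and Dusp4 changed by 1.13-fold, 1.11-fold and 1.12-fold. At all 10 genes the 3 libraries with NETs lay wholly above or wholly below the 3 control libraries, which held for 49.0% of tested genes (24.5% with NETs below, as at 8 of the 10, and 24.4% with NETs above, as at 2 of the 10). Falls of at least 1.5-fold were called at 3 of the 10 genes, against 5.12% of tested genes, and falls of at least 2-fold at 2 of the 10, against 2.31%. The median log2 fold change was -0.43 over the 10 genes and -0.0039 over all tested genes. In a bulk sample, less RNA per cell and fewer cells expressing a gene cannot be told apart.

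The control libraries held 43923391 to 64431811 counts and the NETs libraries 31119105 to 52890140. Of the 8 epithelial marker genes checked (Epcam, Cdh1, Krt8 and others) all were well expressed, with a summed level of 4689 to 5011 CPM in control medium and 5249 to 5494 CPM with NETs. Of these 8, Cldn4, Krt7 and Krt8 rose (log2 fold changes 1.06, 0.41 and 0.25), Krt18, Cdh1 and Cldn7 fell (-0.27, -0.14 and -0.14) and Epcam and Krt19 did not pass. Of 12 neutrophil markers 5 were at 0 in every library, Elane, Ngp, Camp, Mmp8 and Csf3r. The 12 together reached 1.62 to 2.23 CPM in control medium and 3.06 to 3.41 CPM with NETs, most of it S100a8, which rose 1.91-fold from 1.38 ± 0.300 to 2.63 ± 0.148 CPM. Of 7 markers of other leukocytes Adgre1 was at 0 throughout, and their sum of 35.0 to 39.3 CPM and 87.9 to 97.1 CPM was nearly all Cd68, which did not pass, and Csf1r, which rose 3.34-fold from 24.1 ± 1.43 to 80.2 ± 5.30 CPM. Of 7 fibroblast markers Dcn and Lum were at 0 throughout, and their sum of 42.8 to 48.7 CPM and 59.3 to 68.0 CPM was mostly Pdgfra, which did not pass the test (45.4 ± 3.37 and 49.2 ± 2.13 CPM). Col1a1 rose 11.3-fold, from 1.18 ± 0.129 to 13.4 ± 2.48 CPM (edgeR adjusted p = 2.33e-11). The part of these markers in the results below was not tested.

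The stretches of DNA upstream of 3 of the falling genes are shown so that their letters can be set beside the values. Each gives the 250 bases before the RefSeq start, 5′ to 3′ on the gene's own strand, on GRCm38.p6. Dusp6 and Spry1 were the genes with the largest falls, and Dusp5 was the 1 gene in which a motif was found, marked in capitals.
Dusp6 (chr10:99262981-99263230, + strand): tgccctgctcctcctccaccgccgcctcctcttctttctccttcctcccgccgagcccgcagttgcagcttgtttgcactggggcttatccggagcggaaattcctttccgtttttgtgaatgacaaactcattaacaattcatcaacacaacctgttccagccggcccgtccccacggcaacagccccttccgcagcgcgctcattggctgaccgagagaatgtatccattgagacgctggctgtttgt
Spry1 (chr3:37639697-37639946, + strand): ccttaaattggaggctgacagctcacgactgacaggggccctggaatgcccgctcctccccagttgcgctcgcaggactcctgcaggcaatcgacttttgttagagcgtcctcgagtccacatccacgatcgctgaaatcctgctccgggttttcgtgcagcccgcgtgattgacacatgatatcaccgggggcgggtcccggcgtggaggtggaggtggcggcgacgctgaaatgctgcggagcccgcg
Dusp5 (chr19:53528895-53529144, + strand): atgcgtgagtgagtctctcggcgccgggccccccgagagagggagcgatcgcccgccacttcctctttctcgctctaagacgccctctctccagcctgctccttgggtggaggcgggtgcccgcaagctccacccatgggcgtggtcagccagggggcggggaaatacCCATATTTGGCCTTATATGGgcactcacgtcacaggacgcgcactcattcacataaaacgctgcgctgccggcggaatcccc

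The set of RefSeq upstream sequences used here lacked Dusp4, Etv4 and Spry4. For the other 7 of the 10 genes it gave 8 sequences in all, since Etv5 has a pair of starts. They were searched on both strands for the ETS site CCGGAAGT, the AP-1 site TGANTCA, the cyclic AMP response element TGACGTCA and the palindromic SMAD site GTCTAGAC. None of the 8 held any of these, and among all 32851 upstream sequences the shares holding them were 2.88%, 6.75%, 1.55% and 0.167%. The shorter ETS core CCGGAA, which lies within the longer ETS site, was also in none of the 8 and in 12.0% of all. The CArG box, the binding site of serum response factor, was in 1 of the 8 and in 1.47% of all. This was Dusp5, with a pair of adjoining matches, CCATATTTGG beginning 82 bases and CCTTATATGG beginning 72 bases before the start. A pair or more of matches occurred in 6 of the 32851 sequences, 0.0183%. The CArG box and the shorter ETS core were added after the sequences had been read, and pairs of matches were counted for the CArG box alone. Its shares thus do not test how unusual the Dusp5 sequence is. A match of letters is a description, and none of it shows binding of a factor.

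**Figure D1:**
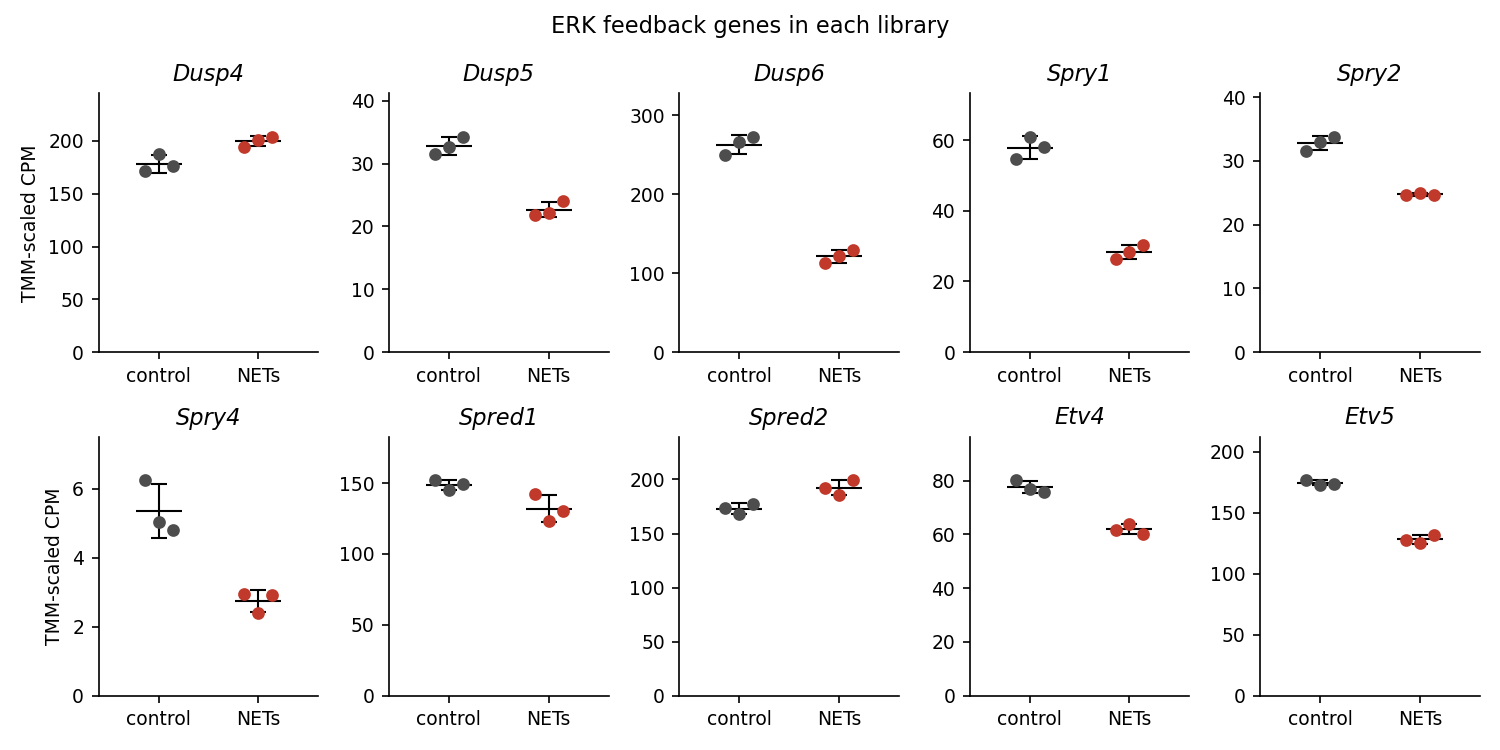
TMM-scaled CPM of the 10 ERK feedback genes in each library, with points for libraries and black marks for the mean ± SD of 3 control and 3 NETs libraries. Each axis starts at 0, and at every gene the points of the groups lie apart, by the widest margin at Dusp6 (263 ± 12.3 against 122 ± 8.21 CPM).

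Among the phosphatases, Dusp6 was 2.16-fold lower, Dusp5 was 1.45-fold lower and Dusp4 was slightly higher with NETs. All 3 are dual-specificity phosphatases that remove the activating phosphates of MAP kinases. Dusp6, the cytoplasmic member with a preference for ERK, stood at 250, 267 and 273 CPM (counts scaled to library size by TMM) in control replicates 1 to 3. In NETs replicates 1 to 3 it stood at 113, 122 and 130 CPM. The lowest control library was thus far above the highest NETs library. The log2 fold change was -1.11 ± 0.056 (SE), with an adjusted p of 8.94e-11 in edgeR.

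Dusp5, a nuclear phosphatase specific for ERK, had 31.5, 32.7 and 34.3 CPM in control libraries and 21.8, 22.2 and 24.0 CPM in NETs libraries. The groups were well apart, with a log2 fold change of -0.53 ± 0.067 (SE, edgeR adjusted p = 6.52e-06). Dusp4, a nuclear phosphatase that acts on JNK and p38 as well as ERK, had 171, 188 and 176 CPM in control medium. With NETs it had 195, 201 and 204 CPM, so that all NETs libraries were above all control libraries but by a small step. Its log2 fold change was 0.17 ± 0.049 (SE, edgeR adjusted p = 0.0131). The call was lost without control replicate 1 (0.14), without NETs replicate 3 (0.15) and with library size as the only scaling (0.10), with adjusted p from 0.0730 to 0.120. Exons of Dusp5 overlap those of the antisense model Gm50394, whose mean was 0.0390 CPM in control libraries and 0.108 CPM in NETs libraries.

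The Sprouty genes were all lower, Spry1 and Spry4 by close to 2-fold and Spry2 by less. Sprouty proteins are induced inhibitors that act between receptor tyrosine kinases and the RAF step. Spry1 had 54.8, 61.0 and 58.0 CPM in control medium against 26.4, 28.4 and 30.4 CPM with NETs. Each NETs library was well below every control library. The fall was 2.03-fold (log2 fold change -1.02 ± 0.065, SE, edgeR adjusted p = 1.77e-09).

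Spry2 had 31.6, 33.0 and 33.8 CPM in control libraries and 24.6, 25.0 and 24.6 CPM in NETs libraries. Its NETs libraries were nearly alike, and the fall was 1.33-fold (log2 fold change -0.41 ± 0.062, SE, edgeR adjusted p = 5.03e-05). Spry4 was the least expressed of the 10, with 6.25, 5.04 and 4.79 CPM in control libraries and 2.94, 2.39 and 2.91 CPM in NETs libraries. These values rest on 228 to 416 counts per control library and 72 to 150 counts per NETs library. Its 1.94-fold fall therefore had the widest error of the 10 (log2 fold change -0.96 ± 0.15, SE, edgeR adjusted p = 7.19e-05). Exons of Spry1 overlap those of the antisense model Gm42922, whose mean was 0.135 CPM in control libraries and 0.229 CPM in NETs libraries.

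The Spred genes moved little and in opposite directions. SPRED proteins, relatives of the Sproutys, bring the RAS-inactivating protein neurofibromin to the membrane. Spred1 had 152, 145 and 149 CPM in control libraries and 142, 123 and 130 CPM in NETs libraries, a gap between groups of only a few CPM. Spred2 had 174, 168 and 178 CPM in control libraries and 192, 186 and 199 CPM in NETs libraries. The log2 fold changes were -0.17 ± 0.054 for Spred1 (SE, edgeR adjusted p = 0.0174) and 0.15 ± 0.048 for Spred2 (SE, edgeR adjusted p = 0.0164). Neither call held each time 1 library was left out, though the direction stayed the same. That of Spred1 was lost without control replicate 1 (-0.16), NETs replicate 2 (-0.13) or NETs replicate 3 (-0.17), and that of Spred2 without control replicate 1 (0.16), control replicate 2 (0.13) or NETs replicate 3 (0.13) and with library size alone (0.09).

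The transcription factor genes Etv4 and Etv5 both fell. Unlike the other 8 they encode activators, which carry ERK signals to further genes. Etv5 had 177, 173 and 174 CPM in control libraries and 127, 125 and 132 CPM in NETs libraries, with groups far apart compared with the spread inside each. Etv4 had 80.2, 77.0 and 75.8 CPM in control libraries and 61.6, 63.9 and 60.1 CPM in NETs libraries. The falls were 1.36-fold for Etv5 (log2 fold change -0.44 ± 0.046, SE, edgeR adjusted p = 7.67e-07) and 1.26-fold for Etv4 (log2 fold change -0.33 ± 0.052, SE, edgeR adjusted p = 7.91e-05).

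**Figure D2:**
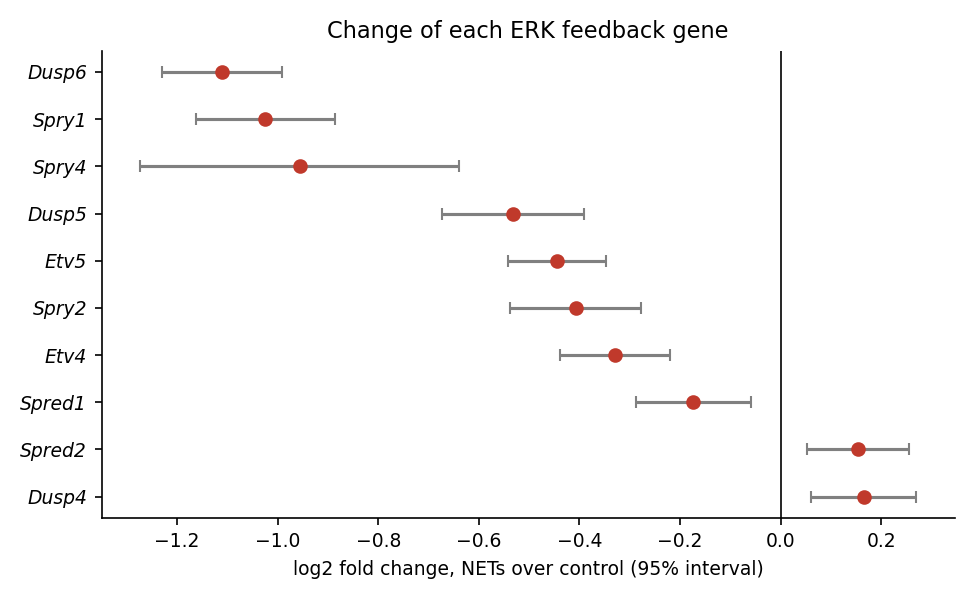
Log2 fold change of each ERK feedback gene, NETs over control, with the 95% interval from the edgeR fit. Dusp6, Spry1 and Spry4 lie furthest below 0, and the intervals of Spred1, Spred2 and Dusp4 come close to 0.

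Levels can be compared between genes per length, as RPKM (the scaled CPM per kilobase of counted exon). In control medium Dusp6 had the highest RPKM of the 10 in all 3 libraries, 84.0 ± 3.92 (mean ± SD, n = 3), followed by Dusp4 with 65.1 ± 3.04. With NETs Dusp4 was first in all 3 libraries at 73.0 ± 1.78 RPKM, followed by Spred2 at 41.7 ± 1.45 and then Dusp6 at 38.9 ± 2.62. Among the 3 phosphatase genes of the set the highest level thus passed from Dusp6 to Dusp4. Etv5 was at 42.5 ± 0.500 and 31.2 ± 0.880 RPKM, above Etv4 at 25.0 ± 0.723 and 19.9 ± 0.617 RPKM.

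Below them in control medium came Spred1 with 21.9 ± 0.536, Spry1 with 19.9 ± 1.08, Spry2 with 15.7 ± 0.529 and Dusp5 with 13.3 ± 0.566 RPKM. Spry4 was last in all 6 libraries, at 1.13 ± 0.164 RPKM in control medium and 0.578 ± 0.0651 RPKM with NETs. In control medium no neighbours in this order overlapped in their ranges. With NETs the ranges overlapped for Spred2 and Dusp6, for Etv4 and Spred1, and for Spry1 and Dusp5. The size of the fall did not follow the level, since Dusp6 at the top and Spry4 at the bottom both fell by about 2-fold.

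**Figure D3:**
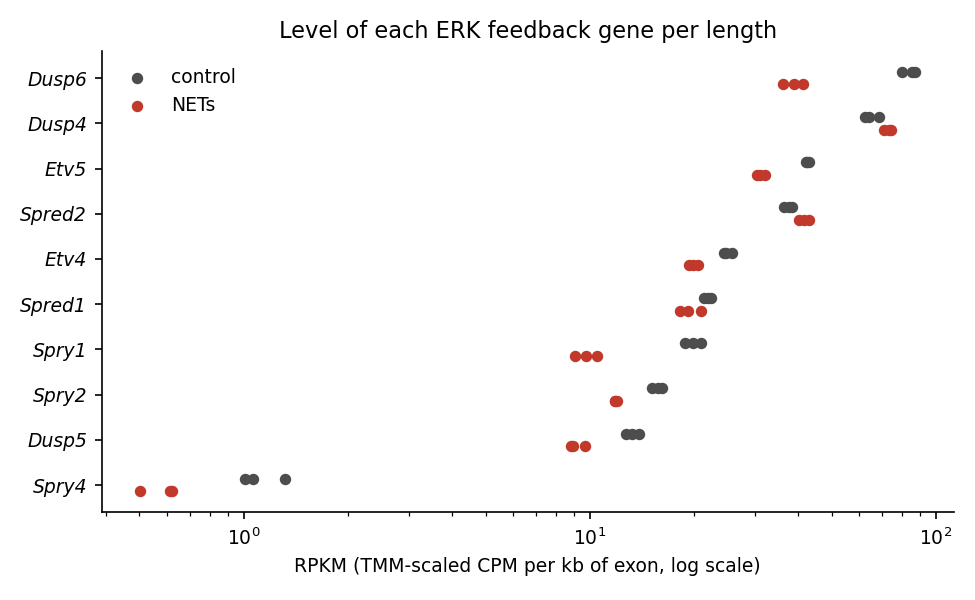
RPKM of the 10 genes on a log scale, ordered by their mean in control medium, with 1 point per library. Dusp6 leads in control medium at 84.0 RPKM and falls below Dusp4 with NETs.

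Ratios between members inside a library do not depend on how libraries were scaled. Dusp6 RPKM was 1.27, 1.24 and 1.36 times that of Dusp4 in the control libraries and 0.510, 0.531 and 0.556 times in the NETs libraries. The order of these phosphatases was thus turned round in every library. The Dusp5 to Dusp4 ratio went from 0.204 ± 0.0113 to 0.126 ± 0.0043 (mean ± SD, n = 3). Spry1 was 1.24, 1.33 and 1.23 times Spry2 in control medium and 0.770, 0.818 and 0.888 times with NETs, another exchange of places. The Spred1 to Spred2 ratio went from 0.586 ± 0.0118 to 0.466 ± 0.0319. The Etv5 to Etv4 ratio moved least among family pairs, from 1.70 ± 0.0340 to 1.57 ± 0.0913, and the Dusp6 to Spry1 ratio moved by -0.09 on the log2 scale. The groups did not overlap in any of the 6 ratios computed. Each had an exact two-sided permutation p of 0.1, raw and adjusted over the 6, the smallest that 3 against 3 can give. For Dusp6 to Dusp4, Dusp5 to Dusp4 and Spred1 to Spred2 this outcome was fixed beforehand. In each of these pairs the genes themselves lay apart in opposite directions. The p-values thus add nothing to the results of the single genes, and ratios of other gene pairs were not computed for comparison.

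**Figure D4:**
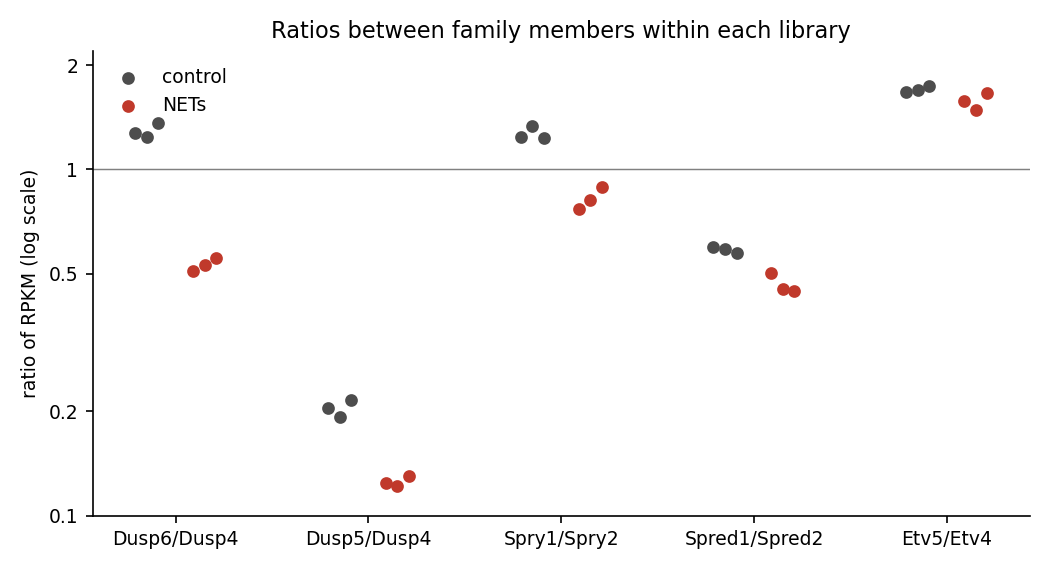
Ratio of RPKM between members of a family in each library, on a log scale with a line at 1. Dusp6/Dusp4 and Spry1/Spry2 lie above 1 in the 3 control libraries and below 1 in the 3 NETs libraries.

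Of 9 close relatives of the 10 genes tested, 4 rose and 2 fell (median log2 fold change -0.17), where 20.2% of all tested genes rose and 18.7% fell. Spry3 was not analysed here. Dusp7, a cytoplasmic ERK phosphatase of the same subgroup as Dusp6, rose 1.51-fold from 109 ± 1.29 to 165 ± 8.24 CPM (edgeR adjusted p = 5.22e-08). Dusp9, the remaining gene of that subgroup, rose 1.38-fold from 19.0 ± 0.635 to 26.3 ± 0.504 CPM (edgeR adjusted p = 2.77e-05). Members of a single subgroup of phosphatases thus went in opposite directions. Dusp2, a nuclear phosphatase with little expression in these cells, was 2.98-fold higher, at 4.70 ± 0.575 CPM against 1.59 ± 0.652 CPM (edgeR adjusted p = 6.72e-05).

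Dusp10 and Dusp16, which act mainly on JNK and p38, had log2 fold changes of 0.19 ± 0.071 and -0.19 ± 0.049 (SE; edgeR adjusted p = 0.0377 and 0.00563). The call of Dusp10 was lost without control replicate 1 (0.17) or 2 (0.19), without NETs replicate 2 (0.20) or 3 (0.14), with library size alone (0.13), with upper-quartile factors (0.17) and without a low-count filter (0.18). Dusp1 stood at 8.13 ± 0.703 and 6.62 ± 1.21 CPM, Dusp8 at 36.4 ± 2.66 and 32.4 ± 2.67 CPM, and Spred3 at 7.22 ± 0.956 and 6.03 ± 0.604 CPM. None of these 3 passed the test (edgeR adjusted p = 0.0724, 0.0765 and 0.121), though each passed under other settings given in the closing section. Etv1, the remaining PEA3 factor, fell 1.45-fold from 75.5 ± 1.80 to 52.2 ± 1.12 CPM (edgeR adjusted p = 3.23e-07). All 3 PEA3 genes were thus lower with NETs.

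Of 21 tested genes on a list of other genes linked to ERK signalling, 9 fell, 3 rose and 9 did not pass (median log2 fold change -0.21), where 18.7% of all tested genes fell and 20.2% rose. Fosl1, an AP-1 subunit gene often used as a marker of sustained ERK activity, fell 1.93-fold from 43.0 ± 3.76 to 22.5 ± 3.05 CPM (edgeR adjusted p = 7.37e-07). Epha4, an ephrin receptor gene, fell 2.10-fold from 31.3 ± 2.43 to 14.9 ± 1.05 CPM (edgeR adjusted p = 1.08e-08). Lesser falls were called for the cyclin gene Ccnd1, the ephrin receptor gene Epha2, the survival gene Mcl1 and the EGF receptor inhibitor gene Errfi1, with log2 fold changes of -0.60, -0.31, -0.31 and -0.32. The remaining falls were Egr3, Areg and Maff, at -1.01, -0.23 and -0.16 (edgeR adjusted p = 0.00886, 0.035 and 0.0493). Egr3 was little expressed, at 1.83 ± 0.241 CPM in control libraries and 0.888 ± 0.412 CPM in NETs libraries. The calls of Egr3, Areg and Maff were not followed gene by gene under the alternatives. The risers were Plaur, the urokinase receptor gene (1.43-fold), the ETS factor gene Elk3 (1.21-fold) and Emp1 (1.13-fold). The call of Emp1 was lost without control replicate 1 (0.15) and with library size alone (0.11). Of the 9 that did not pass, Fos, Ier2, Ier3 and Phlda1 had log2 fold changes of -0.11, -0.11, -0.21 and -0.13. Myc, Hbegf and Il17rd stood at 0.02, 0.01 and 0.03, Egr2 at -0.89, and Egr1 is given below.

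Egr1, an immediate-early gene, was singled out after its values were seen. It had 14.5, 27.5 and 32.0 CPM in control libraries and 4.91, 12.9 and 10.1 CPM in NETs libraries. The groups lay apart, but replicate 1 was the lowest in each and the call was missed (log2 fold change -1.43 ± 0.50, SE, edgeR adjusted p = 0.0973). It passed in DESeq2 (adjusted p = 0.0176), in limma-voom (adjusted p = 0.00330) and with replicate number as a block (edgeR adjusted p = 4.94e-07). The replicate numbers were not taken as pairs, however. In none of the other alternatives did Egr1 pass, with edgeR adjusted p from 0.0652 to 0.224 when 1 library was left out.

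Of 35 tested genes of the ERK cascade itself, 5 rose, 10 fell and 20 did not pass (median log2 fold change -0.02). The 15 calls were 42.9% of the list, near the 38.9% called over all tested genes (20.2% higher and 18.7% lower). Mapk3, which encodes an ERK kinase, had 125 ± 4.64 CPM in control libraries and 130 ± 3.65 CPM in NETs libraries (edgeR adjusted p = 0.371). Among 6 RAS genes, Mras, Rras2 and Nras rose 1.42-fold, 1.25-fold and 1.16-fold. The MEK gene Map2k1 rose 1.30-fold from 121 ± 2.61 to 157 ± 9.19 CPM (edgeR adjusted p = 1.38e-05). The scaffold gene Ksr1 fell 1.38-fold and the exchange factor gene Sos2 1.32-fold.

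Genes of RAS-inactivating proteins were divided, as Rasa1 rose 1.19-fold while Rasa3, Dab2ip and Rasa2 were among the falls, Rasa3 by 1.54-fold. Among 5 genes of kinases that ERK activates 4 fell, where 18.7% of all tested genes did, and these few genes carry no test as a group. Mknk2 fell 1.73-fold from 191 ± 16.1 to 110 ± 3.28 CPM (edgeR adjusted p = 1.40e-08), Rps6ka2 1.48-fold and Mknk1 1.45-fold.

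**Figure D5:**
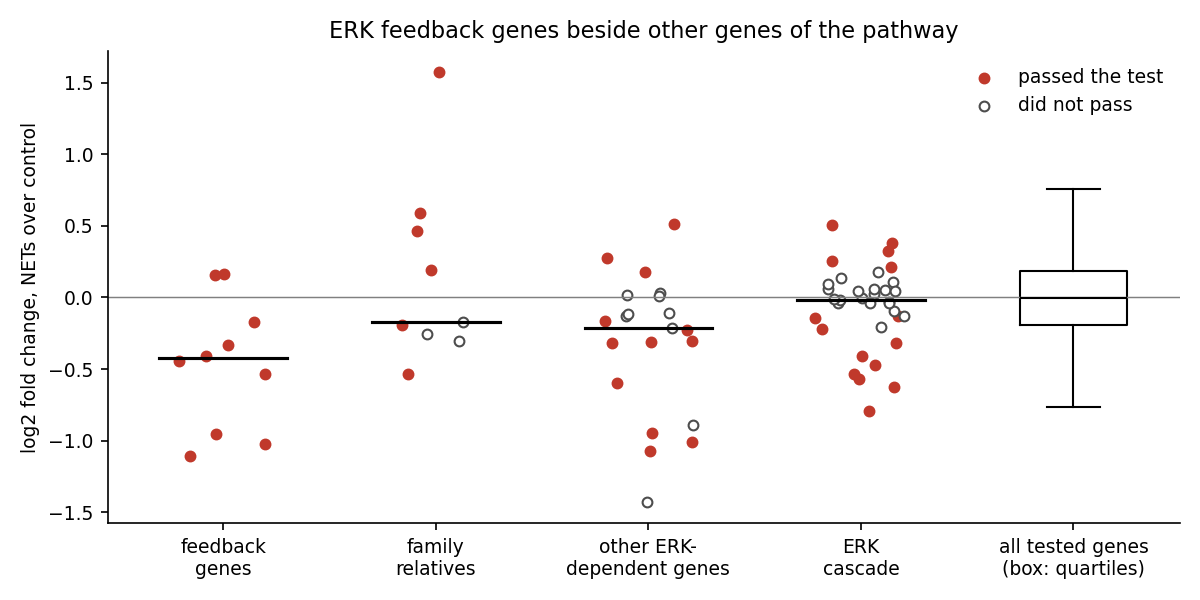
Log2 fold change, NETs over control, of tested genes on 4 lists, filled where the edgeR test was passed, with a bar at each list's median. The box shows quartiles of all 13956 tested genes with whiskers to 1.5 times the box length and further points left out.

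In the deposited coordinates Dusp6 spans 99099093 to 99103351 of chromosome 10, Spry1 37694096 to 37698747 of chromosome 3, Dusp5 53517540 to 53530862 of chromosome 19 and Etv5 22200059 to 22258469 of chromosome 16. These spans cover exons and introns, and counts were made over exons. The submitters' processing notes name mm10, but the deposited spans of 2 of the 10 genes overlap the position of the same gene in the mm10 annotation. The build of these spans was not identified here, as no other build was compared, and they should not be joined with the GRCm38.p6 positions of the sequences above.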

How the data were processed

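The counts were used as the authors deposited them, as whole numbers of reads per gene symbol without normalisation. STAR 2.7.10a, featureCounts (Subread 2.0.3) and mm10 are named in the submitters' processing notes. Strand setting and annotation release: not given in the sources used here. Of the counts from 1 to 20, 74.8% to 78.4% were even in each library, as when both mates of a pair are counted. The deposited exon length served for RPKM.

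Counts were scaled by TMM, filtered with filterByExpr (minimum count 10) and compared with edgeR 4.0.16 (glmQLFit, robust, and glmQLFTest) in R 4.3.3, with medium as the only term. P-values were adjusted by Benjamini-Hochberg over 13956 genes and called at 0.05. Standard errors were taken from the fold change and F statistic. The script was tested on simulated data. Alternatives were other scalings and filters, DESeq2 1.42.0, limma-voom (limma 3.58.1), halved counts, a replicate block and leaving out each library.

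The genes and lists were chosen with earlier results of these data known. The text names the 10 genes, their tested relatives and, from each of the other lists, up to 6 called genes per direction with the smallest p. Mapk3, Egr1, Egr3, Areg, Maff, Rasa2 and Dab2ip were named after their values were seen, as were the other genes linked to ERK signalling that did not pass. Libraries of a group differed by 9.59 to 25.1 times counting noise (chi-square per degree of freedom), so each was counted once. This figure takes counts as independent, and counting both mates of a pair would by itself raise it. A result for 1 gene is not reported here.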

Additional observations from a re-analysis of the deposited data

How the results depend on the processing

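Of the 10 genes, Dusp5, Dusp6, Spry1, Spry2, Spry4, Etv4 and Etv5 kept their call and direction under all 15 alternatives, with log2 fold changes of -1.18 to -1.06 for Dusp6, -1.09 to -0.97 for Spry1 and -1.03 to -0.83 for Spry4. The number of the 10 called higher was 2, but 0 with library size alone, and it ranged from 0 to 2 when 1 library was left out. With library size alone the split over all genes was 2106 higher and 3763 lower, 35.9% higher against 52% in the main scaling. Family relatives called lower were 2, but 4 with library size alone and 4 without a low-count filter. Dusp1 passed with library size alone (-0.37), without a filter (-0.32) and without NETs replicate 2 (-0.41). Dusp8 passed in 6 alternatives, from -0.24 to -0.17, and Spred3 without control replicate 3 (-0.36). The direction of Mapk3 turned with library size alone (-0.0100), at a value close to 0. The replicate block gave 2969 genes higher and 2713 lower against 2825 and 2605, with the same 2 and 8 among the 10 genes. Deviations of libraries with the same number correlated at 0.118, -0.0593 and 0.0564, and not every library correlated best with its own number. The numbers were therefore not taken to pair the samples. With 3 libraries per group, these correlations cannot decide whether they do. At 72 counts in its lowest library, Spry4 is the gene of the 10 that depth limits most.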
